A study of Arabidopsis thaliana with 6 samples.

Results

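The genes described are the subunit genes of the cytosolic chaperonin CCT, also called TCP-1 ring complex, as read by Arabidopsis probes in shoots of Brassica oleracea. The members were chosen by locus: the 9 Arabidopsis loci that encode CCT1 to CCT8, with 2 loci for subunit 6, each taken where a probe set names it as its only gene. Of the 9 loci, 8 had such a probe set, among 13286 genes with a probe set of their own in the whole series. Of these, 7 were measured on all 6 arrays, AT3G18190 (CCT4) on the replicate 1 arrays alone, and AT3G20050 (CCT1) under no probe set named here. The gene table gives the measured loci by locus ID only, and the subunit numbers are those by which the loci are known in Arabidopsis. The loci were proposed with their group differences in these arrays already known. Those differences are therefore a description, without p-values, and support nothing beyond it.

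CCT folds newly made proteins in the cytosol. It is a pair of stacked rings of related but different subunits around a chamber, in which ATP hydrolysis closes a built-in lid over the client protein. Actin and tubulin are its best known clients, and prefoldin hands them to it, while tubulin folding cofactors act on tubulin after release. In plants the complex is also known for a part in the movement of KNOTTED1-type transcription factors between cells, which was traced to CCT8 in Arabidopsis. In yeast the subunits of one side of the ring, CCT1, CCT2, CCT4 and CCT5, bind ATP tightly, and those of the other side, CCT3, CCT6, CCT7 and CCT8, bind it weakly. The results below follow these sides of the ring as an order of presentation.

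The study compared phosphate-starved shoots (P-starved, 3 arrays) with shoots under full nutrient supply (replete, 3 arrays), each group numbered 1 to 3 in the sample titles. All 6 samples were shoot tissue of Brassica oleracea var. alboglabra line A12dH, grown on compost at 22 °C in 16 h days. Their RNA was hybridised to ATH1 arrays, which carry probes for Arabidopsis thaliana, the organism that the sample records also name. Nothing in the sources says that the samples of a group were separate harvests, so the spread between them may be technical, and neither plant age nor the length of starvation is given.

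Signals are the deposited MAS5 values, a linear brightness per probe set on which each array has a 2% trimmed mean of 100. The arrays fell into processing sets that list different probe sets, the replicate 1 arrays with 22810 and the replicate 2 and 3 arrays with 19642. Arrays of one set correlated across probe sets with r of 0.903 or more on the log2 scale, and arrays of different sets with 0.633 or less. Each set held both groups, so the log2 differences below compare arrays within sets. Means and SD of 3 arrays, percentages taken from those means, and overlap over all arrays pool the sets. Such SD and overlap thus include differences between the sets. Log2 differences are P-starved minus replete on log2(signal + 16), which understates the difference of dim probe sets, with the standard error (SE) of a limma fit that has the processing set as a block. Nuclear shoot genes were bright on every array, as in PRK, of the Calvin cycle, at 680 to 2059 in P-starved and 826 to 3175 in replete shoots. The 3 of 8 root marker genes measured summed to 85.3 to 159 in P-starved and 68.7 to 143 in replete shoots, and none of the 5 flower marker genes was measured.

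All 7 subunit genes measured on every array had a lower mean log2 signal in P-starved than in replete shoots. Their log2 differences ran from -0.22 to -1.002, with a median of -0.62, where the median of all 19578 probe sets tested was 0.02 and 47.4% of them were below 0. AT3G03960 (CCT8), with a mean signal at 45.5% of the replete level, was the only member with every P-starved array below every replete array, as 1.92% of all tested probe sets were. No member passed limma's adjusted p threshold of 0.05, and neither did any other probe set (0% called lower and 0% higher, the adjusted p being 0.788 or more). Before adjustment, 627 probe sets (3.2%) had a p under 0.05 and were lower, and 530 (2.71%) were higher. In whole shoots, fewer cells that make these transcripts and less transcript per cell cannot be told apart.

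**Figure D1:**
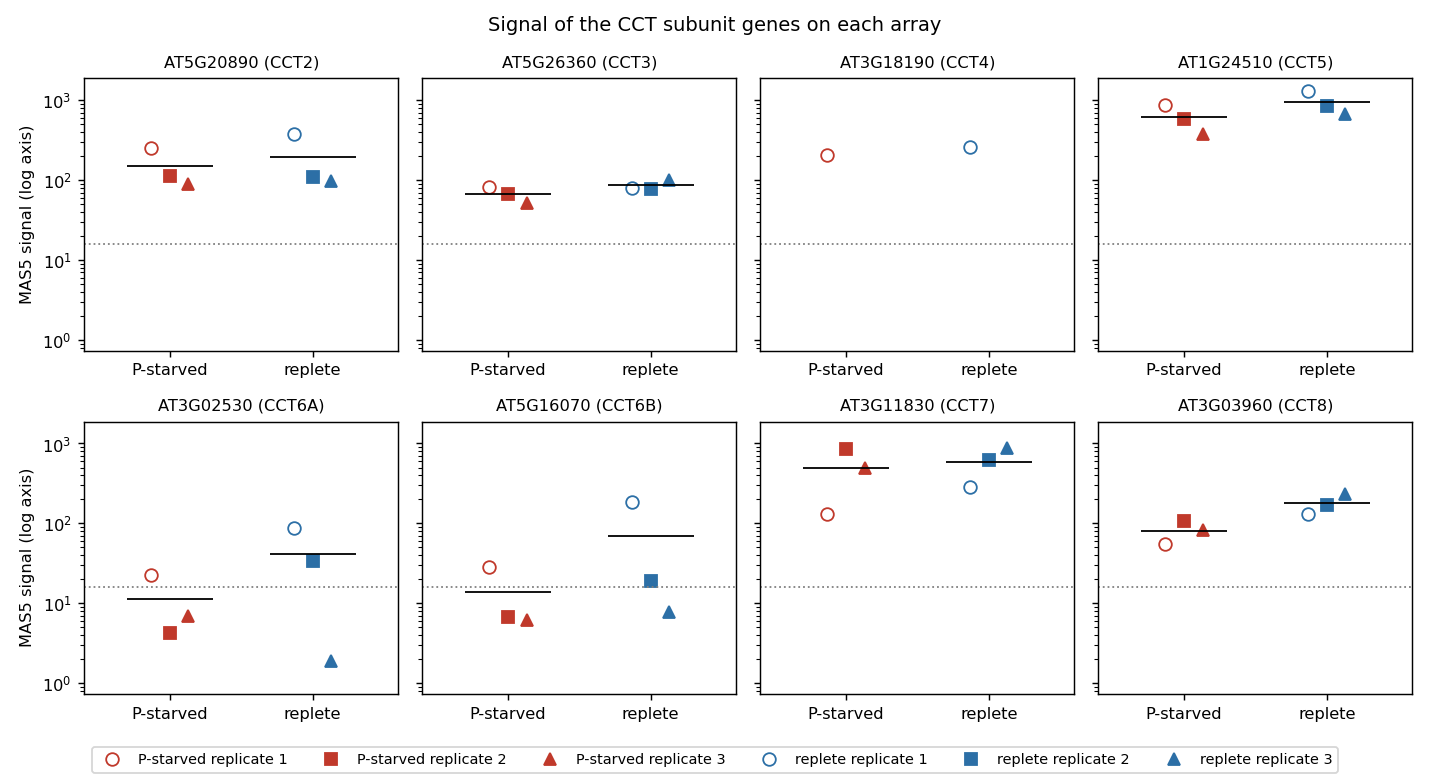
MAS5 signal on a log axis of the 8 CCT subunit genes with a probe set, with P-starved arrays left and replete arrays right. Open circles are replicate 1 arrays, squares replicate 2 and triangles replicate 3, and black lines are means of 3 arrays. The dotted line marks a signal of 16, under which both subunit 6 genes lay on P-starved replicates 2 and 3 and on replete replicate 3.

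Among the subunits that bind ATP tightly in yeast, AT1G24510 (CCT5) was bright on every array. Its signal was 885, 588 and 379 on P-starved replicates 1, 2 and 3, against 1313, 839 and 672 on replete replicates 1, 2 and 3. Every P-starved array lay below the replete arrays of its own processing set, and over all 6 arrays the groups overlapped through P-starved replicate 1. The mean was 618 ± 254 in P-starved and 941 ± 333 in replete shoots (SD, n = 3 each), and the log2 difference was -0.62 ± 0.20 (SE). The P-starved level was 67.4% of the replete level on the replicate 1 arrays, a log2 difference of -0.56, and 64.04% on the replicate 2 and 3 arrays, a difference of -0.65 ± 0.27. The sets thus gave nearly the same size, though the first is 1 array against 1.

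AT5G20890 (CCT2) had a signal of 251, 111 and 89.2 on P-starved replicates 1, 2 and 3, against 376, 109 and 99.1 on replete replicates 1, 2 and 3. The replicate 2 and 3 arrays of the groups overlapped, and the replicate 1 arrays differed, from 1 array against 1. The log2 difference was -0.22 ± 0.20 over all arrays, and within the sets it was -0.55 on the replicate 1 arrays and -0.05 ± 0.25 on replicates 2 and 3. The P-starved level was 66.9% of the replete level in the first set and 96.2% in the second.

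AT3G18190 (CCT4) has values for replicate 1 only, where its signal was 206 in P-starved and 263 in replete shoots. That is 78.4% of the replete level, a log2 difference of -0.33 from 1 array against 1 with no replicate check. AT3G20050 (CCT1) was not analysed here.

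Among the subunits that bind ATP weakly in yeast, AT3G03960 (CCT8) was lower by a like amount in both processing sets. Its signal was 55.5, 106 and 81.6 on P-starved replicates 1, 2 and 3, against 131, 171 and 233 on replete replicates 1, 2 and 3. The highest P-starved array lay below the lowest replete array. The mean was 81.0 ± 25.3 in P-starved and 178 ± 51.3 in replete shoots, with a log2 difference of -1.002 ± 0.21. In the first set the difference was -1.04, from 1 array against 1, and in the second -0.98 ± 0.27. These are 42.3% and 46.5% of the replete level.

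AT3G11830 (CCT7) had a signal of 130, 843 and 498 on P-starved replicates 1, 2 and 3, against 285, 623 and 868 on replete replicates 1, 2 and 3. In the first set the P-starved array lay below the replete array, from 1 array against 1. In the second set the groups overlapped, with P-starved replicate 2 close to the brighter replete array. The log2 difference was -0.47 ± 0.30 over all arrays, with -1.04 in the first set and -0.18 ± 0.33 in the second. This gene was brighter in the second set than in the first, the opposite of CCT2 and CCT5, so the sets do not differ by one factor for all subunits.

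AT5G26360 (CCT3) had a signal of 82.0, 67.5 and 52.4 on P-starved replicates 1, 2 and 3, against 80.8, 77.1 and 102 on replete replicates 1, 2 and 3. It was the only member without a lower value on the P-starved array of the first set, where its log2 difference was 0.02. On the replicate 2 and 3 arrays the groups did not overlap, with a difference of -0.47 ± 0.33 and a P-starved level at 67.1% of the replete level. Over all arrays the difference was -0.31 ± 0.25.

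The subunit 6 genes were dim on most arrays. AT3G02530 (CCT6A) had 22.5, 4.20 and 7.0 on P-starved replicates 1, 2 and 3, against 87.5, 33.8 and 1.90 on replete replicates 1, 2 and 3. AT5G16070 (CCT6B) had 28.1, 6.80 and 6.10 in P-starved shoots, against 185 on replete replicate 1, 19.0 on replete replicate 2 and 7.70 on replete replicate 3. Both were thus lower in P-starved shoots on the replicate 1 arrays, from 1 array against 1. On most of the other arrays they were close to or under a signal of 16. Their log2 differences were -0.79 ± 0.44 and -0.97 ± 0.44 over all arrays. Both differences were larger in the first set, where CCT6A had -1.43 and CCT6B -2.19, while the second set gave -0.47 ± 0.53 and -0.36 ± 0.23. The groups of CCT6A overlapped in the second set, since its replete replicate 3 had the lowest signal of any array. The 2 genes encode close relatives in Arabidopsis, and whether their probes read the same Brassica transcripts was not tested.

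**Figure D2:**
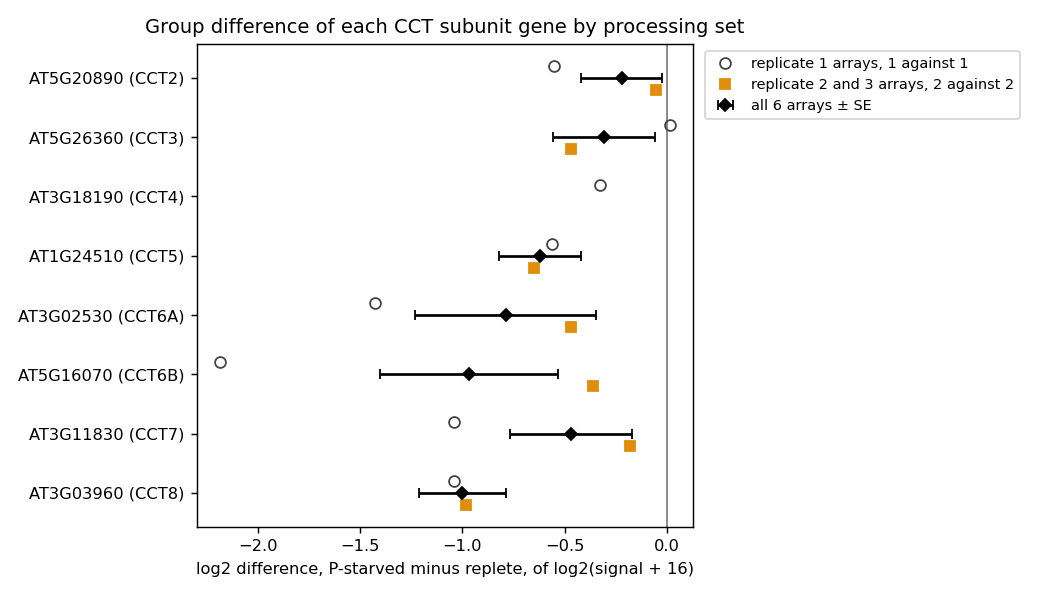
Log2 difference, P-starved minus replete, of log2(signal + 16) for each subunit gene, over all 6 arrays with its SE (diamonds), on the replicate 1 arrays (open circles) and on the replicate 2 and 3 arrays (squares). CCT5 and CCT8 had about the same difference in both processing sets, while CCT2, CCT6A, CCT6B and CCT7 had larger ones on the replicate 1 arrays and CCT3 only on the others. Each replicate 1 value is from 1 array against 1.

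Within processing sets, 7 of the 8 members listed on the replicate 1 arrays were lower on the P-starved array, with CCT3 as the exception, where 47.4% of all probe sets listed there were below 0. On the replicate 2 and 3 arrays all 7 members measured were lower, where 46.1% of all tested probe sets were. Of the 7 measured in both sets 6 were lower in each, against 23.1% of all tested probe sets. Without overlap on the replicate 2 and 3 arrays there were 4 members lower, CCT3, CCT5, CCT6B and CCT8, where 16.1% of all tested probe sets were. Of these, CCT5, CCT6B and CCT8 were lower on the replicate 1 arrays as well, as 8.59% of all tested probe sets were. CCT6B was dim on the replicate 2 and 3 arrays, at 6.80 and 6.10 in P-starved against 19.0 and 7.70 in replete shoots. Since the members were proposed from this same contrast, the counts describe them and nothing is read from their distance to those shares. The median of the 7 members was -1.04 in the first set and -0.47 in the second, a gap that was not tested.

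The subunits were also compared with each other array by array, after the mean of its processing set was taken from each log2 signal. Averaged over the 7 members, the centred level was -0.49, -0.08 and -0.38 on P-starved replicates 1, 2 and 3, against 0.49, 0.32 and 0.14 on replete replicates 1, 2 and 3. All P-starved arrays were thus on the low side and all replete arrays on the high side, with P-starved replicate 2 the nearest to its set mean. Centring gives the groups of a set opposite means, and the replicate 1 arrays are a mirrored pair. The members were also proposed from this contrast, so the split describes them and is no check on it. P-starved replicate 3 was lower than P-starved replicate 2 in 6 of 7 members, all but CCT6A, where 48.3% of all tested probe sets were. Between replete replicates 3 and 2 the members were divided, with 4 lower and 3 higher in replicate 3. CCT2, CCT5 and the subunit 6 genes were the 4 lower, and CCT3, CCT7 and CCT8 the 3 higher.

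**Figure D3:**
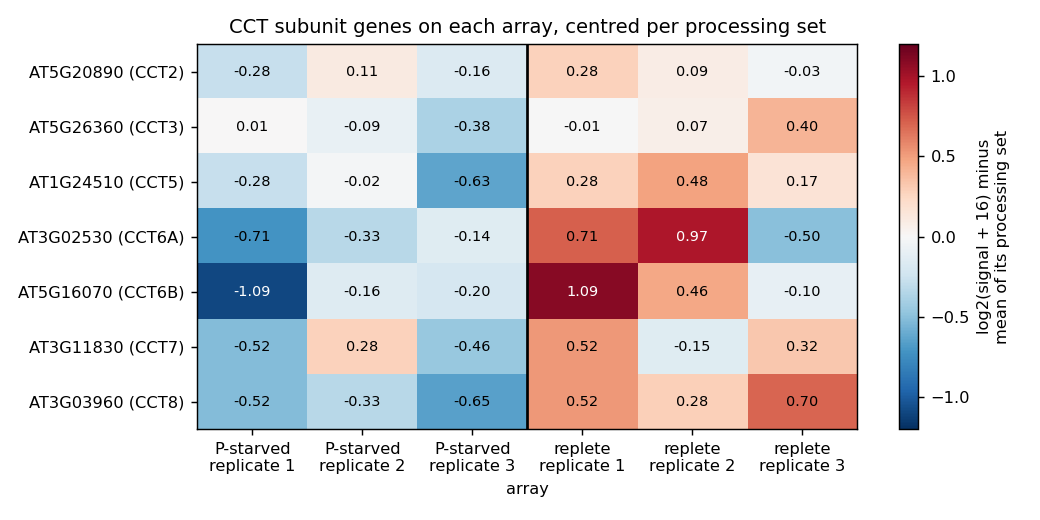
Log2(signal + 16) of the 7 subunit genes on each array minus the mean of its processing set, from blue (low) to red (high), with P-starved arrays left of the line and replete arrays right. On P-starved replicates 1 and 3 every member but CCT3 on replicate 1 is below its set mean, and on replete replicate 3 CCT6A stands out as low at -0.50.

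Pearson's r between the centred values of 2 members over the 6 arrays had a median of 0.66 in the 21 pairs, and 20 of them were above 0. Of the pairs 71.4% had an r of 0.5 or more. The median over all pairs of tested probe sets with 1 gene was 0.01, with 19.7% at 0.5 or more. These r hold the group difference for which the members were proposed, and the replicate 1 arrays enter as a mirrored pair. On the replicate 2 and 3 arrays alone the members' median was 0.51, with no value over all pairs beside it. Over all 6 arrays the median was 0.34 for tubulins, 0.30 for cytosolic HSP70 and Hop genes and 0.47 for plastid chaperonins, lists described below. These came from 21, 10 and 3 pairs. All pairs share the same arrays, so they are not independent of each other.

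The order of the pairs depended on the mirrored replicate 1 arrays. CCT2 and CCT6B had an r of 0.91 over all 6 arrays and 0.51 on the replicate 2 and 3 arrays, where CCT6B was dim. Pairs with a high r in both readings included CCT3 with CCT8 (0.78 over all arrays and 0.97 on replicates 2 and 3) and CCT5 with CCT8 (0.83 and 0.79). CCT2 with CCT5 (0.72 and 0.78), CCT3 with CCT5 (0.66 and 0.74) and CCT5 with CCT6B (0.64 and 0.77) were others. The subunit 6 genes also had a high r in both, 0.85 and 0.94, but both genes were dim on replicates 2 and 3. Replete replicate 2 had 33.8 for CCT6A and 19.0 for CCT6B, against at most 7.0 and 7.70 on the other arrays of that set. The 0.94 thus rests largely on replete replicate 2. To the mean of the other members, CCT3 had an r of 0.37 over all arrays, where the other 6 had 0.62 to 0.88. On the replicate 2 and 3 arrays CCT3 had 0.70, and the lowest were CCT6A with 0.24 and CCT7 with 0.29. No member therefore stood furthest from the others in both readings, the second of which rests on 4 arrays.

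Of the 5378 other probe sets with 1 gene among the brighter 50%, 2.1% had an r of 0.9 or more to the mean centred profile of the members. The 5 with the highest r over the 6 arrays were AT1G15290 (0.996), AT1G51980 (0.996), AT2G40570 (0.995), AT2G45520 (0.990) and ATYKT62 (AT5G58180, 0.990). AT2G40570 had 40.6, 389 and 329 on P-starved replicates 1, 2 and 3, against 101, 564 and 500 on replete replicates 1, 2 and 3, a log2 difference of -0.71 ± 0.18. Its P-starved arrays lay below the replete arrays in each set. The profile used to choose these genes holds the group difference of the members, so this order follows from the choice. The difference of ATYKT62 was only -0.13 ± 0.14, since r measures the shape of the profile and not its size.

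The clients and partners of the complex were read from lists of loci known in Arabidopsis, and few of them had a probe set of their own on all arrays. None of the 6 prefoldin genes and neither of the 2 phosducin-like cofactor genes of CCT was measured. Of the other lists, 7 of 17 tubulin, 2 of 8 actin, 2 of 5 tubulin folding cofactor, 5 of 12 cytosolic HSP70, HSP90 and Hop, and 3 of 11 plastid and mitochondrial chaperonin genes were. None of these genes passed the adjusted threshold in either direction.

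The tubulins differed in sign between the processing sets. On the replicate 1 arrays 0 of 7 had a lower signal in the P-starved sample, and their median difference was 0.52, where 48% of the tested probe sets were below 0. On the replicate 2 and 3 arrays 5 of 7 were lower, with a median of -0.38. The beta-tubulin gene TUB7 (AT2G29550) had 1335, 603 and 474 on P-starved replicates 1, 2 and 3, against 984, 830 and 902 on replete replicates 1, 2 and 3. It was thus higher in the first set and lower without overlap in the second, and its difference over all arrays was -0.31 ± 0.26. TUB5 (AT1G20010), also a beta-tubulin, was higher in both sets, at 67.5, 35.6 and 10.3 in P-starved against 15.7, 2.90 and 0.90 in replete shoots, a difference of 1.16 ± 0.29. It was dim, under a signal of 16 on every replete array and on P-starved replicate 3. On the replicate 1 arrays the signs of CCT subunits and tubulins were therefore opposite for all but CCT3, from 1 array against 1, and the difference between the lists was not tested.

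Of the actins, ACT11 (AT3G12110) had a difference of -0.08 ± 0.32. ACT12 was dim on every array, at 5.10 to 8.80 in P-starved and 1.5 to 7.70 in replete shoots. Both tubulin folding cofactor genes, POR (AT4G39920, cofactor C) and PFI (AT1G71440, cofactor E), were lower, at -0.22 ± 0.22 and -0.07 ± 0.44. POR was under a signal of 16 on all replicate 2 and 3 arrays. PFI had almost equal mean signals, 28.2 in P-starved and 28.0 in replete shoots. For ACT11, POR and PFI the difference was no larger than about 1 SE.

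Other chaperone systems of the cell did not share one direction. Of the cytosolic HSP70 and Hop genes measured 4 of 5 were higher over all arrays, with a median of 0.13. The first set again had 4 of 5 higher and the second set 3 of 5. Their median was 0.03 without replete replicate 3 and 0.24 without replete replicate 2. The Hop genes encode co-chaperones that join HSP70 to HSP90. Hop3 (AT4G12400) had 14.4, 16.2 and 8.20 on P-starved replicates 1, 2 and 3, against 3.0, 2.70 and 2.40 on replete replicates 1, 2 and 3, without overlap but dim on nearly all arrays. Hop1 (AT1G12270) had 43.4, 16.0 and 12.3 in P-starved against 32.9, 20.3 and 9.0 in replete shoots, in groups that overlapped. Their differences were 0.62 ± 0.13 and 0.09 ± 0.23, and that of Hsp70-2 (AT5G02490) was -0.17 ± 0.19.

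The plastid chaperonin genes, whose products form rings of the bacterial kind without a built-in lid, were 3 of 3 lower over all arrays and on the replicate 1 arrays, and 2 of 3 on the replicate 2 and 3 arrays, where Cpn60beta2 had 0.01. The median over all arrays was -0.38. Cpn60beta2 (AT3G13470) had 213, 1121 and 844 on P-starved replicates 1, 2 and 3, against 265, 1007 and 925 on replete replicates 1, 2 and 3, and a difference of -0.09 ± 0.16. Cpn60beta4 (AT1G26230) had -0.38 ± 0.29, and Cpn60beta3 (AT5G56500), with a mean signal of 7.60 ± 4.88 in P-starved and 22.8 ± 15.5 in replete shoots, had -0.66 ± 0.17. No gene of the mitochondrial chaperonin was measured under its name.

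**Figure D4:**
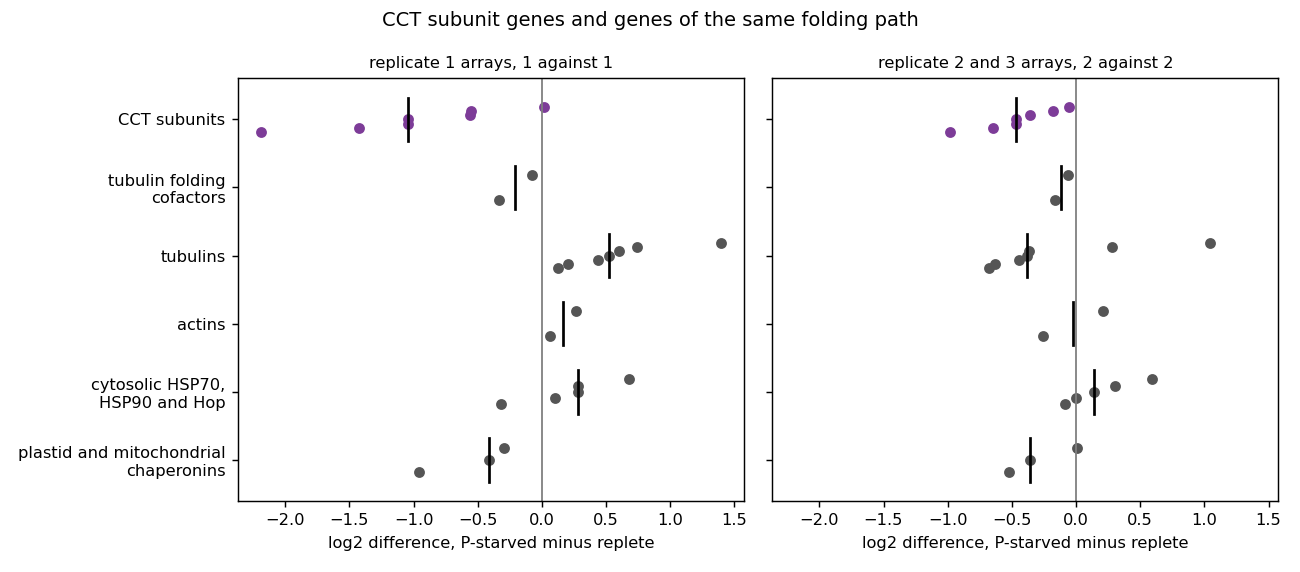
Log2 difference, P-starved minus replete, of each measured gene of the CCT subunits and of 5 lists of related genes, on the replicate 1 arrays (left) and on the replicate 2 and 3 arrays (right), with vertical bars at the list medians. The CCT subunits lie at or below 0 in both panels but for CCT3 at 0.02 on the left, and the tubulins lie above 0 on the left and mostly below 0 on the right.

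Of the 9 marker genes of dividing cells 1 was measured, PRL (AT4G02060), a subunit of the helicase that licenses DNA replication. Its signal was 119, 129 and 133 on P-starved replicates 1, 2 and 3, against 128, 212 and 217 on replete replicates 1, 2 and 3. It was lower in both sets, without overlap in the second, and its difference was -0.46 ± 0.19. Whether dividing cells had a part in the CCT values was not tested.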

How the data were processed

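The deposited values are MAS5 signal intensity, a linear brightness per probe set, made by the authors with MAS5 per the submitters' processing notes. No version or probe masking is stated in the labels, and no detection calls were used. The value table is in 1 file, whose columns are named by sample. Each array was rescaled to a 2% trimmed mean of 100, which the deposited values already had to within rounding, and log2(signal + 16) was taken. After 64 control probe sets were left out, the 19578 probe sets listed on every array were fitted in R 4.3.3 by limma 3.58.1 (lmFit, then eBayes with a mean trend), with group and processing set as terms, two-sided tests and Benjamini-Hochberg adjustment over all probe sets. The fit was tested on simulated data. The number of arrays limits the precision, and between 21.8% and 33.9% of each array's tested signals were under 16.

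Gene names came from the platform's gene table joined to RefSeq genes of TAIR10.1, and 11428 tested probe sets had 1 gene. Where a gene of a list had several, the probe set of highest mean stood for it. Brassica gene copies are not resolved by Arabidopsis probes. The members, the lists, the processing-set block and the rules were chosen with earlier results of these data known. By rule, every CCT member was named, from each related list at most the 2 genes with the smallest and the 2 with the largest difference, and the 5 brighter genes most like the members. Same-numbered samples deviated together from their group means (r of 0.839, 0.551 and 0.530 across probe sets), but this is the processing set: within the second set, replicate 3 minus 2 correlated between the groups with r of 0.016, so the numbers were not taken to pair the samples. Alternatives were group alone, the replicate number as a block, each processing set alone, offsets of 4 and 64, the brighter 50%, other scaling and leaving out each array. No sequences or coordinates are given.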

Additional observations from a re-analysis of the deposited data

How the results depend on the processing

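All 7 measured members kept a lower value in P-starved shoots under every alternative for design, offset, scaling and left-out array, and limma called 0 probe sets in either direction in each fit. The members were proposed from this contrast, and some of these settings could not alter the differences. In balanced groups the design terms leave them unchanged, and leaving out either replicate 1 array gives the replicate 2 and 3 values. On the replicate 1 arrays only, 6 of 7 were lower, and the members' median was -1.04 against -0.62 over all arrays. Without P-starved replicate 1 or replete replicate 1 it was -0.47, and over all left-out arrays it ran from -0.79 to -0.44. With offset 64 it was -0.41, with the brighter 50% of probe sets, 5 members, -0.47, and with quantile normalization -0.56. Without the 2 subunit 6 genes it was -0.47, and with CCT4 added from its replicate 1 values -0.54, both chosen after seeing the data. The median r between members was 0.51 on the replicate 2 and 3 arrays only, against 0.66, and 0.64 to 0.72 with offsets of 4 and 64, quantile normalization or without the 2 subunit 6 genes, the only others run for it. The replicate number as a block gave the same median of -0.62, as the groups are balanced, and also called no probe set, and group as the only term raised the SE of CCT8 to 0.38. The tubulin median of -0.18 changed sign to 0.52 on the replicate 1 arrays and to 0.05, 0.08 and 0.06 without P-starved replicate 2, P-starved replicate 3 or replete replicate 3. The log2 difference of CCT8 exceeded that of CCT6B over all arrays by little, and with offset 4 the values were -1.11 for CCT8 and -1.29 for CCT6B, with quantile normalization -1.05 and -1.14. The HSP70 and Hop median of 0.13 was -0.02 in the brighter 50%, with 2 genes left. The chaperonin median of -0.38 was -0.65 without replete replicate 2 and -0.15 without replete replicate 3. The cause of these moves was not tested.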
